A study of Capra hircus with 29 samples.

Results

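The comparison of high with low fertility across all follicle stages drew on RNA sequencing of oocytes from Ji'ning grey goats, a breed kept as a high and a low litter size population. It took every oocyte sample of the series, 29 of 29, by the letter for fertility in its label: 14 high fertility samples (HLO, HMO and HSO) against 15 low fertility samples (LLO, LMO and LSO). The letters L, M and S in the middle stand for large, medium and small follicles. Each group had 5 samples except HSO with 4, numbered 1, 3, 4 and 5. The labels name no treatment and give no age of the animals. The labels and the methods of the study word the litter sizes behind high and low fertility differently, so no limit is given here. According to those methods, oocytes of a stage were pooled across animals and then divided into samples of a few oocytes each, which is stated for the high fertility goats. Which goats a sample holds is not recorded. The p-values therefore measure only the spread between these samples, which may be technical. Fertility and everything else that set the populations apart cannot be told apart in this design.

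Of 21343 genes in the table, 9692 exceeded 0.5 FPKM (fragments scaled to transcript length and library size) in at least 4 of the 29 samples and were tested. Between 6646 and 8689 genes exceeded 0.5 FPKM in a sample, and the FPKM of a sample summed to between 222697 and 490048. FPKM are not counts, so the depth behind a value cannot be read from them. Every difference below is high minus low fertility on log2(FPKM + 1), with follicle size as a covariate, and this scale understates the differences of genes with low FPKM. A growing oocyte stores RNA, ribosomes and mitochondria for meiosis and for the early embryo, and becomes nearly silent in transcription by the time its follicle is large. It also secretes GDF9 and BMP15, growth factors that steer the surrounding granulosa cells, and variants of these genes and of their receptor BMPR1B are known for their effect on litter size in sheep and goats.

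The samples carried the RNA of oocytes. Of 15 oocyte marker genes, 10 exceeded 0.5 FPKM in all samples, among them the zona pellucida genes ZP3 with a mean of 1406 FPKM, ZP4 with 424 FPKM and ZP2 with 245 FPKM. The histone chaperone NPM2 had 971 FPKM, GDF9 312 FPKM and BMP15 152 FPKM. NLRP5 exceeded 0.5 FPKM in only 5 samples and NOBOX in 8, and 1 of the 2 DAZL entries was listed at 0 throughout. Of 266 entries with symbols of cytosolic ribosomal proteins, some of which share a symbol, 74 were also listed at 0 in all samples. Whether these are extra copies of genes was not tested. A 0 is therefore taken to say no more than that the entry is listed at 0.

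Most markers of other cells of the ovary were low or listed at 0, and such a 0 is not read as low expression. In the granulosa and cumulus list the defining genes AMH, AMHR2 and HSD17B1 were listed at 0 in all samples, FSHR reached at most 0.283 FPKM, LHCGR 0.0460 FPKM and the aromatase gene CYP19A1 0.244 FPKM. The 22 markers of that list summed to between 17.6 and 87.7 FPKM in a sample, with a median of 41.3 FPKM. Of these, 5 exceeded 0.5 FPKM in all samples: STAR, a cholesterol carrier of steroid-making cells, with a mean of 18.8 FPKM, SERPINE2 with 9.05 FPKM, KITLG with 4.71 FPKM, VCAN with 3.97 FPKM and HAS2 with 1.45 FPKM. Of the theca and stroma list, INSL3 was listed at 0 in all samples and COL1A1 reached at most 0.0391 FPKM. Its 14 markers summed to between 12.8 and 87.3 FPKM with a median of 32.2 FPKM, and MGP, an inhibitor of calcification in the matrix, at 17.7 FPKM and DCN at 7.95 FPKM exceeded 0.5 FPKM in all samples. Among 13 blood and vessel markers CD14, CD74, CDH5, CLDN5 and TYROBP were listed at 0 in all samples. They summed to at most 3.36 FPKM, led by KDR at 0.443 FPKM. The 14 epithelial markers summed to at most 11.0 FPKM, led by KRT19 at 2.51 FPKM, the only 1 over 0.5 FPKM in all samples, with CLDN3 and KRT14 listed at 0 in all samples. In such pooled samples fewer cells of a type and less RNA per cell cannot be told apart.

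Between the fertility groups, a single gene passed the test after adjustment over all genes, PLEKHA3, which was lower in high fertility oocytes. Genes without that adjustment leaned to the low fertility side in number and to the high fertility side in size. By limma's moderated test with Benjamini-Hochberg adjustment over 9692 genes, 1 gene was lower in the high fertility group, 0.0103% of those tested, and 0 were higher. At an unadjusted p under 0.05, 329 genes were higher in high fertility oocytes (3.39%) and 639 were higher in low fertility oocytes (6.59%). When a log2 difference beyond 1 was required as well, 47 genes were higher in high fertility (0.485%) and 4 were higher in low fertility (0.0413%).

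These counts moved with the scaling and with individual samples. With median-of-ratios factors on the FPKM, the unadjusted counts were 595 higher in high and 413 higher in low fertility, so that 59.0% of the genes were higher in high fertility in place of 34.0%. By limma 0 genes passed the adjusted threshold under that scaling, against 1008 at an unadjusted p under 0.05. With both limits the count higher in high fertility was 14 without LLO replicate 2, 26 without LLO replicate 5, 30 without HLO replicate 2 and 31 without HLO replicate 1. It was 101 without LLO replicate 1, 81 without LMO replicate 1 and 80 without HSO replicate 3. The lean turned around in some settings. With array weights, which give less weight to samples far from the fit, 28 genes were higher in high and 149 higher in low fertility past both limits, and 87 and 604 after adjustment in limma. With only the samples numbered 1 and 5, 218 were higher in high and 67 higher in low fertility at the unadjusted p.

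A pair of samples stood apart from all others, LLO replicates 2 and 5. Their scores on the second principal component were -92.7 and -101, against -20.3 to 37.1 in the other samples. Cytosolic ribosomal proteins made up 4.57% and 2.15% of their FPKM, against 6.14% to 13.3% in the others. A fit without both samples, chosen after the data were seen, gave 0 genes past the adjusted threshold in limma. At the unadjusted p it gave 191 genes higher in high and 488 higher in low fertility, and 15 and 6 past both limits. PLEKHA3 had -1.26 with an adjusted p of 0.0649 in it. Of the 144 named genes, 54 had a difference that moved by over 1.5 times in this fit, 17 of them to the other sign.

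PLEKHA3 (ENSCHIG00000019515) encodes FAPP1, a protein that binds a phosphoinositide of the Golgi apparatus and acts in transport from there to the cell surface. In large follicles it was at 2.93, 1.72, 1.96, 1.02 and 1.89 FPKM in HLO and at 2.94, 5.68, 6.83, 4.14 and 6.05 FPKM in LLO. In medium follicles it was at 1.31, 1.23, 2.84, 0.798 and 1.98 FPKM in HMO and at 6.40, 13.4, 7.19, 15.9 and 10.3 FPKM in LMO. In small follicles it was at 2.15, 2.76, 2.06 and 3.68 FPKM in HSO and at 2.92, 2.19, 7.12, 2.66 and 11.0 FPKM in LSO. All samples of the high group lay below all of the low group in large and in medium follicles, whereas in small follicles the groups overlapped. The mean was 2.02 ± 0.811 FPKM (SD, n = 14) in high and 6.98 ± 4.08 FPKM (SD, n = 15) in low fertility. The shared log2 difference was -1.28 (standard error 0.223, limma's adjusted p 0.0276), and a high fertility sample exceeded a low fertility sample of its own stage in 7.14% of pairs. Within the stages the difference was -1.07 in large, -2.12 in medium and -0.57 in small follicles. The test of whether PLEKHA3 differed between stages in this respect gave an unadjusted p of 0.0100 in limma over 29 samples, and 0.384 after adjustment.

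The call of PLEKHA3 sat close to the threshold. When each sample was omitted once, the log2 difference lay between -1.36 and -1.20, and limma's adjusted p between 0.00699 and 0.0755. The adjusted p was above 0.05 without HLO replicate 2 (0.0536), HMO replicates 1, 2, 4 and 5 (0.0746, 0.0755, 0.0677 and 0.0659) and HSO replicate 4 (0.0519). On the low fertility side it was so without LLO replicates 2 and 3 (0.0551 and 0.0658), LMO replicates 2, 3, 4 and 5 (0.0642, 0.0536, 0.0595 and 0.0726) and LSO replicates 3 and 5 (0.0615 and 0.0592). The call was also lost with median-of-ratios factors (-1.21, adjusted p 0.122) and with quantile normalization (-1.25, adjusted p 0.147). The same held without a filter (adjusted p 0.0571), with only the samples numbered 1 and 5 (-1.10, 0.915), with numbers 2, 3 and 4 (-1.44, 0.582) and without large follicles (-1.39, 0.448). Without medium follicles it was also lost, and the difference was -0.84 with an adjusted p of 0.507.

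**Figure D1:**
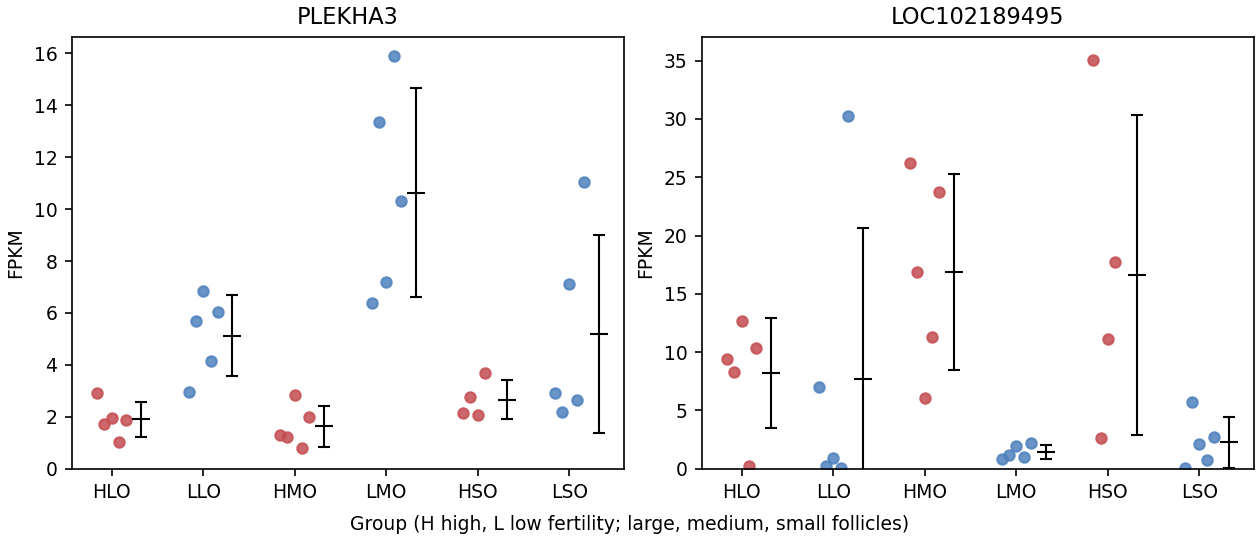
FPKM of PLEKHA3 (left) and LOC102189495 (right) in each of the 29 samples by group, with high fertility in red and low fertility in blue; each point is a sample, and the black mark and bars beside the points are the mean and SD of the group, drawn only down to 0. PLEKHA3 lay below 4 FPKM in all high fertility samples and separated the groups in large and medium follicles, and LOC102189495 separated them in medium follicles.

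Among the named genes, LOC102189495 had the next smallest adjusted p. It is annotated as dihydrodiol dehydrogenase 3, an enzyme of the aldo-keto reductase type. The gene had 9.42, 8.28, 12.6, 0.246 and 10.3 FPKM in HLO and 6.99, 0.187, 0.906, 0.0489 and 30.2 FPKM in LLO. In HMO it had 26.2, 16.9, 6.03, 11.3 and 23.7 FPKM, against 0.8, 1.19, 1.90, 1.04 and 2.22 FPKM in LMO. HSO had 35.0, 2.63, 11.2 and 17.7 FPKM and LSO 0.0539, 5.69, 2.12, 0.715 and 2.71 FPKM. The groups did not overlap in medium follicles. In large follicles HLO replicate 4 was among the low fertility values and LLO replicate 5 above all others, and in small follicles HSO replicate 3 was below a pair of LSO samples. The log2 difference of 2.0 (standard error 0.457) did not pass the test, with an adjusted p of 0.367 in limma. It was 2.24 with an adjusted p of 0.0412 without HLO replicate 4, and 2.29 with 0.0193 without LLO replicate 5.

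Besides these, 9 genes per direction were named for the largest difference out of all with a gene symbol, with an unadjusted p under 0.05 and with the same sign in every stage. None of these 18 passed the adjusted test, where limma's p lay between 0.423 and 0.491, so their values are a description. On the high fertility side, LOC102188434, annotated as subunit 4 of cytochrome c oxidase and sharing its symbol with 2 other entries, ranged in high fertility from 92.0 to 356 FPKM with a median of 239 FPKM, and in low fertility from 2.26 to 367 FPKM with a median of 115 FPKM. Both groups reached a similar upper end, and the samples at 20.7 FPKM or less were all of low fertility: LLO replicates 2, 3 and 5, LMO replicate 3 and LSO replicate 3. The log2 difference was 2.01 (3.32 in large, 1.54 in medium and 1.06 in small follicles). NDUFB2, an accessory subunit of respiratory complex I, had a median of 328 FPKM (13.6 to 1269 FPKM) in high and 83.2 FPKM (7.83 to 993 FPKM) in low fertility, a log2 difference of 1.68. The ranges overlapped over most of their width. COQ5, a methyltransferase of ubiquinone synthesis, had nearly equal medians of 88.3 FPKM (65.2 to 202 FPKM) and 84.5 FPKM (1.4 to 141 FPKM). Its log2 difference of 1.47 was carried by low fertility samples far below the others, with 2.80 in large, 0.10 in medium and 1.53 in small follicles.

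LYRM4, needed for the assembly of iron-sulfur clusters, was listed at 0 in at least 1 sample of both groups and had medians of 14.1 FPKM in high and 1.90 FPKM in low fertility, with highest values of 21.8 and 28.4 FPKM. SMIM20, which takes part in the assembly of cytochrome c oxidase and is carried by 2 entries, had a median of 3.75 FPKM (0 to 14.8 FPKM) in high fertility. In low fertility its median was 0 FPKM (0 to 8.37 FPKM). For both genes the groups overlapped, and the log2 differences were 1.33 and 1.38. CENPM, a centromere protein, had 17.1 FPKM (1.85 to 67.4 FPKM) in high and 3.65 FPKM (0 to 56.2 FPKM) in low fertility, a log2 difference of 1.54. LOC102188051, annotated like ERG28 of sterol synthesis, had 136 FPKM (79.1 to 216 FPKM) and 92.0 FPKM (3.24 to 169 FPKM), a log2 difference of 1.47. It separated the groups in 1 of the 3 stages. The differences of LOC102174664, annotated as ribonuclease pancreatic-like, and of SH3BGRL3, a small thioredoxin-like protein, were 1.43 and 1.30. Their medians were 30.4 and 29.7 FPKM in high against 9.46 and 20.0 FPKM in low fertility, and their ranges overlapped.

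The named genes on the low fertility side had smaller differences. PUM2, an RNA-binding repressor of translation, is carried by 2 entries. The entry with the larger difference was listed at 0 in most samples. It reached 5.99 FPKM in HMO replicate 3 alone among high fertility samples and 24.1 FPKM in low fertility, with a log2 difference of -1.17. The other entry ranged from 1.07 to 2.75 FPKM (median 1.85 FPKM) in high and from 1.46 to 7.86 FPKM (median 2.74 FPKM) in low fertility, a log2 difference of -0.53. MARVELD2, or tricellulin, of tight junctions, had 3.14 FPKM (1.09 to 5.35 FPKM) in high and 7.08 FPKM (2.46 to 21.8 FPKM) in low fertility. Its log2 difference was -1.01 (standard error 0.262), with -1.20 in large, -0.47 in medium and -1.4 in small follicles. No high fertility sample exceeded 5.35 FPKM, whereas low fertility samples lay on both sides of that level.

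JAK1, the kinase of many cytokine receptors, had 2.96 FPKM (2.09 to 4.81 FPKM) in high and 5.28 FPKM (2.67 to 15.5 FPKM) in low fertility. Its log2 difference of -0.76 (standard error 0.214) was alike across stages, with -0.80 in large, -0.69 in medium and -0.79 in small follicles, where the groups did not overlap. DEK, a chromatin protein, had 6.48 FPKM (4.28 to 13.8 FPKM) against 13.3 FPKM (4.14 to 51.8 FPKM), a log2 difference of -0.84 that was also similar in all stages. TAF5, a subunit of the general transcription factor TFIID, had 5.82 FPKM (3.53 to 9.92 FPKM) against 8.96 FPKM (3.89 to 59.4 FPKM), a log2 difference of -0.77. In TAF5 and in LUZP1 (-0.76), a leucine zipper protein, the highest low fertility sample was LMO replicate 2 and the next LLO replicate 2, well above the rest. ZNRF2, a ubiquitin ligase, NAT10, which acetylates cytidines in RNA, and OSBPL1A, an oxysterol-binding protein with 2 entries, had log2 differences of -0.84, -0.82 and -0.78. Their medians were 6.36, 16.9 and 9.84 FPKM in high against 13.5, 32.7 and 16.6 FPKM in low fertility, with overlapping ranges.

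**Figure D2:**
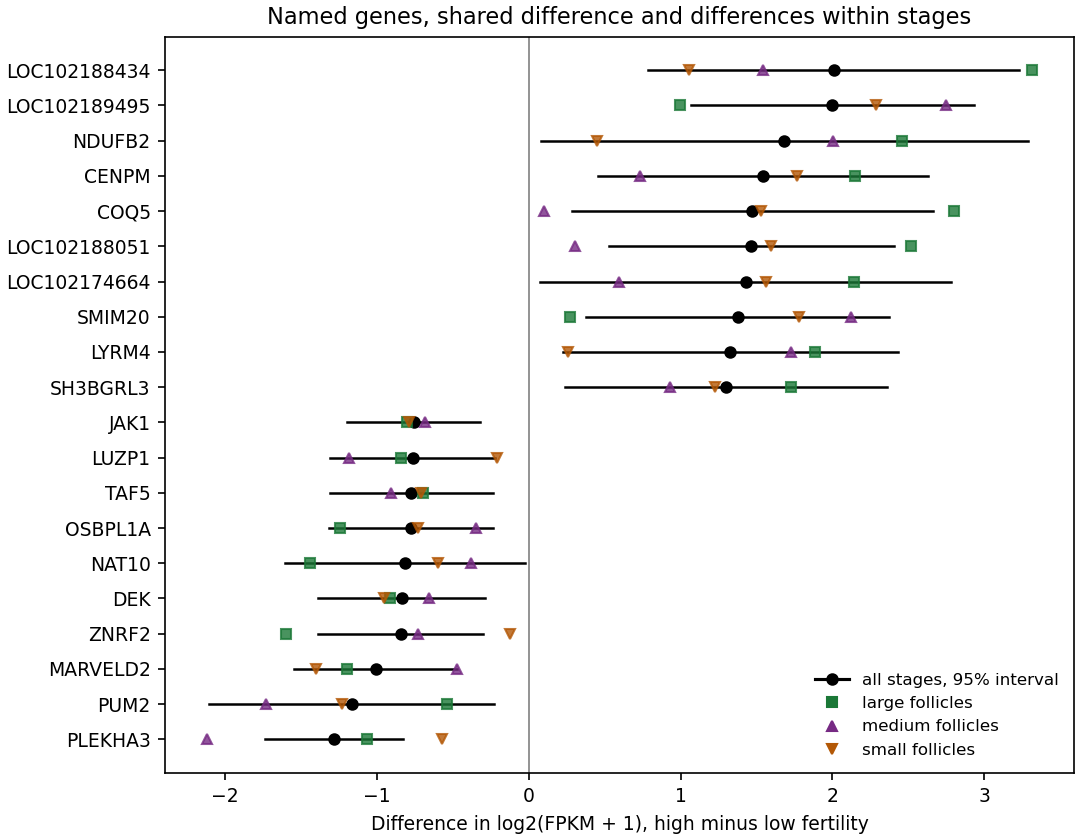
Difference in log2(FPKM + 1), high minus low fertility, of 20 genes (vertical axis), those named per direction for the largest differences among genes with a symbol and the same sign in every stage; black circles with lines are the difference shared by all stages with its 95% interval from limma, green squares large, purple upward triangles medium and orange downward triangles small follicles. Genes higher in high fertility mostly had wider intervals than genes higher in low fertility.

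The lean of the unadjusted calls differed with the level of the gene. When the genes were ordered by mean FPKM in 4 groups of 2423, the highest, at 10.9 FPKM or more, held 139 genes higher in high and 109 higher in low fertility at an unadjusted p under 0.05. In this group 58.6% of differences were above 0 and the median was 0.09. The counts were 56 and 203 in the group below it, 70 and 211 in the next and 64 and 116 in the lowest, with medians of -0.09, -0.07 and -0.04. Of the 47 genes past both limits on the high fertility side, 34 were in the highest group and 13 in the one below it. On log2(FPKM + 1) a gene with low FPKM can hardly reach a log2 difference of 1. The scale thus partly sets this spread over the groups, and nothing about the level of the genes is read from it. With a pseudocount of 0.1, 146 genes were past both limits on that side. Over all genes at an unadjusted p under 0.05, the median log2 difference was 0.65 on the high and -0.43 on the low fertility side. The median FPKM of these genes was 5.36 and 2.50, against 2.67 over all genes tested.

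Of the 47 genes, 33 had the same sign in all 3 stages, 12 shared their symbol with another entry and 3 had no symbol. Only 5 belonged to a gene list described below: NDUFB2, the ribosomal genes RPS15 and RPL38, the interferon-induced IFIT5 and the glutaredoxin GLRX. LOC102168533, annotated as subunit 10 of the cytochrome b-c1 complex, and LOC102188434 are also annotated as respiratory chain subunits, but neither was in the respiratory list. LOC102168533, given here after its values were seen, had the largest difference of the 47, at 2.05 (standard error 0.998). Its sign was not shared by all stages, with -0.43 in small follicles. All 4 genes on the low fertility side had the same sign in every stage, and they were PLEKHA3, PUM2, MARVELD2 and ENSCHIG00000017581, an entry without a symbol given here after its values were seen. It had a median of 0 FPKM (0 to 50.2 FPKM) in high and 10.5 FPKM (0 to 54.7 FPKM) in low fertility, with overlapping ranges. Its log2 difference of -1.54 (standard error 0.673, limma's adjusted p 0.468) was -0.43 in large, -3.26 in medium and -0.86 in small follicles.

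Complete separation of the fertility groups within stages was rare. In at least 2 of 3 stages, the fertility groups were fully apart in 4 genes, 0.0413% of those tested: SDC2 was higher in high fertility, and PLEKHA3, MKRN2 and U2AF2 were higher in low fertility. In at least 1 stage this was so for 180 genes higher in high (1.86%) and 224 higher in low fertility (2.31%). In all 3 stages it was so for 0 genes, against 968 at an unadjusted p under 0.05 in limma. Separation in a single stage is given for some genes as a description only, and no result is read from it. SDC2 and MKRN2 were chosen after their values were seen. SDC2, the cell surface proteoglycan syndecan-2, had 2.34 FPKM (0.458 to 3.70 FPKM) in high and 1.34 FPKM (0.329 to 3.29 FPKM) in low fertility, with log2 differences of 0.04 in large, 0.97 in medium and 0.45 in small follicles. The shared difference was 0.49 (standard error 0.158, limma's adjusted p 0.423). MKRN2, a ubiquitin ligase with RNA-binding zinc fingers, had 0.284 FPKM (0 to 0.831 FPKM) in high and 0.620 FPKM (0.291 to 2.55 FPKM) in low fertility. Its difference was -0.50 (standard error 0.124, limma's adjusted p 0.423), and a high fertility sample exceeded a low fertility sample of its stage in 10% of pairs. U2AF2, a splicing factor that recognises the end of introns, had 0.165 FPKM (0.0552 to 0.463 FPKM) against 0.482 FPKM (0.0920 to 0.869 FPKM), a difference of -0.31 (standard error 0.0805, limma's adjusted p 0.423). MKRN2 and U2AF2 lay near or below the limit of 0.5 FPKM in most samples.

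Of 18 entries of genes known for litter size in sheep and goats, 10 were tested. By limma 0 passed the adjusted threshold, and INHBB alone had an unadjusted p under 0.05. GDF9 ranged from 89.8 to 974 FPKM (median 236 FPKM) in high and from 31.9 to 696 FPKM (median 268 FPKM) in low fertility, a log2 difference of 0.31 (standard error 0.451, limma's adjusted p 0.874). The groups overlapped over nearly all of their range, and the difference was 0.14 without LLO replicates 2 and 5. BMP15 had 119 FPKM (79.3 to 235 FPKM) in high and 179 FPKM (67.6 to 306 FPKM) in low fertility, with -0.33 (standard error 0.218, limma's adjusted p 0.610). Its difference lay mainly in medium follicles at -0.78, beside 0.02 in large and -0.23 in small follicles. BMPR1B, a receptor of this family, had 1.06 FPKM (0.459 to 2.41 FPKM) against 0.951 FPKM (0.505 to 1.77 FPKM), a difference of 0.05 (standard error 0.129). INHBB, which encodes an inhibin and activin subunit, was listed at 0 in samples of both groups, with medians of 0.0595 FPKM in high and 0.187 FPKM in low fertility and a difference of -0.25 (limma's adjusted p 0.482).

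The other litter size genes tested also overlapped between the groups. INHBA, the companion subunit of INHBB, had -0.30, with LMO replicate 5 at 5.21 FPKM, LSO replicate 5 at 4.84 FPKM and HLO replicate 4 at 2.27 FPKM above all others, and KITLG, the ligand of the receptor KIT, had 0.30. The differences were 0.11 for IGF1, 0.05 for the phosphatase CDC25C, -0.10 for the oestrogen receptor ESR2 and -0.12 for the transcription factor LHX4. The 10 genes had a median of -0.02 with 5 above 0, which ran from -0.36 with array weights to 0.15 with the samples numbered 1 and 5.

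Gene lists are described by counts beside those of all genes tested, of which 3.39% were higher in high and 6.59% higher in low fertility at an unadjusted p under 0.05, 42.8% had a difference above 0, and the median was -0.04. No member of any list passed the adjusted test in limma, so every list held 0 such genes, and the unadjusted counts follow for each. Of the 33 lists, 21 had a median of the other sign in at least 1 of the other settings, and 10 with a single sample left out. The median moved by over 1.5 times in at least 1 setting for 32 lists, all but DNA and histone methylation, and in 26 lists with a sample left out. The median of all genes was itself -0.16 with array weights and 0.05 with the samples numbered 1 and 5.

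Genes of the ribosomes and the respiratory chain were mostly above 0, a lean that rested in large part on LLO replicates 2 and 5. Of 80 nuclear entries for respiratory complexes and ATP synthase, 9 were higher in high and 0 in low fertility at an unadjusted p under 0.05, 65 had a difference above 0 and the median was 0.34. Of 75 mitochondrial ribosomal proteins, 5 and 0 were so, with 64 above 0 and a median of 0.33. Among 144 entries of cytosolic ribosomal proteins it was 6 and 0, with 113 above 0 and a median of 0.22. The medians were uneven over the stages. For the respiratory chain they were 0.58 in large, 0.33 in medium and -0.07 in small follicles, for mitochondrial ribosomal proteins 0.59, 0.31 and 0.08, and for cytosolic ribosomal proteins 0.42, 0.23 and -0.18. The lean in large and medium follicles was already known for these samples, so the shared direction is no independent support.

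LLO replicates 2 and 5 had the lowest median levels of these lists. The median FPKM over the respiratory genes was 11.9 and 14.7 FPKM in them against at least 38.1 FPKM in every other sample. For mitochondrial ribosomal proteins it was 2.41 and 4.40 FPKM against at least 7.42 FPKM, and for cytosolic ribosomal proteins 5.94 and 4.52 FPKM against at least 29.4 FPKM. NDUFA6, a subunit of complex I, had 185 and 147 FPKM in this pair and 1208 to 4297 FPKM in the others. Not all members were low in them: ATP5J was highest of all samples in LLO replicate 2 at 7640 FPKM, and the summed FPKM of the respiratory list was 9153 in LLO replicate 5, 13902 in LMO replicate 2 and 15252 in LLO replicate 2. Without both samples the shared medians were 0.08 for the respiratory chain, 0.11 for mitochondrial and -0.01 for cytosolic ribosomal proteins, beside -0.05 over all genes. The medians also moved with other choices. The respiratory chain had 0.21 without LMO replicate 2, 0.22 with quantile normalization and 0.18 without large follicles. Mitochondrial ribosomal proteins had 0.20 without LLO replicate 2, 0.04 with array weights and 0.19 without large follicles. Cytosolic ribosomal proteins had 0.10 without LLO replicate 5, 0.14 without LLO replicate 2, 0.12 with quantile normalization, 0.10 without a filter, 0.14 without medium and 0.06 without large follicles, and 0.42 without small follicles. Without small follicles the respiratory chain had 0.55. What sets LLO replicates 2 and 5 apart was not tested.

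Among the respiratory genes, NDUFS4, a subunit of complex I, had 747 FPKM (419 to 1268 FPKM) in high and 590 FPKM (120 to 975 FPKM) in low fertility, a log2 difference of 0.70 (standard error 0.278) that was 0.41 without LLO replicates 2 and 5. COX7B2, a subunit of cytochrome c oxidase known from germ cells, had 198 FPKM (52.4 to 329 FPKM) against 104 FPKM (24 to 258 FPKM), a difference of 0.88. The most abundant members, ATP5J and NDUFA6, had differences of 0.12 and 0.61, and without these samples ATP5J had 0.29 and NDUFA6 0.08. Of the mitochondrial ribosome, MRPS24 had 159 FPKM (88.7 to 215 FPKM) against 84.4 FPKM (49.5 to 214 FPKM), a difference of 0.69 with no overlap in 1 stage, and MRPL55 had 0.93, or 0.45 without that pair. Of the cytosolic ribosome, RPL28 had 194 FPKM (138 to 303 FPKM) against 157 FPKM (17.9 to 269 FPKM), a difference of 0.89 that was 1.96 in large, 0.58 in medium and 0.04 in small follicles. RPL38 had a difference of 1.23 but shares its symbol with 3 other entries, which makes its value uncertain. The share of all FPKM in cytosolic ribosomal proteins was 9.02 ± 2.07% (SD, n = 14) in high and 8.96 ± 3.22% (SD, n = 15) in low fertility (permutation p 0.991). The stages went opposite ways, with a difference of 2.43 percentage points in large, -0.252 in medium and -2.14 in small follicles, and without LLO replicates 2 and 5 the shared difference was -0.810 (permutation p 0.394).

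The genes encoded by the mitochondrion itself had opposite signs in the stages. Of 13, 0 passed an unadjusted p under 0.05 in limma, and the median of -0.26 stood beside 0.94 in large, -1.92 in medium and 0.63 in small follicles. The cytochrome c oxidase subunit COX3, the most abundant, had 132 FPKM (31.7 to 1585 FPKM) in high and 178 FPKM (2.95 to 1262 FPKM) in low fertility, with -0.26 overall and 0.62, -2.10 and 0.80 in the stages. Without medium follicles the median of the list was 0.71, and with the samples numbered 2, 3 and 4 it was 0.17, against -0.70 with numbers 1 and 5. A single sample also moved it, from -0.47 without HSO replicate 3 to -0.04 without LMO replicate 3.

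Other lists of protein synthesis and turnover had medians from -0.14 to 0.03. Translation initiation and elongation factors, 57 genes, had 0 higher in high and 2 in low fertility by the unadjusted p, and a median of -0.08, which ran from -0.41 with array weights to 0.16 with numbers 1 and 5. The initiation factors EIF3A and EIF5B were the members of smallest p, with -0.42 and -0.43. The 51 proteasome genes had 2 and 1 and a median of 0.03, which was -0.21 with array weights and 0.30 with numbers 1 and 5. PSMA3 of the core had 0.65 and PSMD11 of the lid -0.60. Of 74 genes of ubiquitin conjugation and removal, 3 and 11 were past the unadjusted p and the median was -0.10, or -0.19 with array weights and -0.05 with median-of-ratios factors. The deubiquitinases USP1 and USP19 had -0.50 and -0.28. Heat shock proteins and chaperonins, 80 genes, had 3 and 6, with 20 above 0 (25% beside 42.8% of all genes) and a median of -0.14. That median was -0.26 with numbers 2, 3 and 4 and -0.01 with numbers 1 and 5. HSP90AA1, the stress-inducible cytosolic HSP90, had 57.9 FPKM (46.6 to 80.5 FPKM) in high and 91.6 FPKM (46.2 to 165 FPKM) in low fertility, a difference of -0.64 (standard error 0.185, limma's adjusted p 0.423) with no overlap in 1 stage.

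The lists of oocyte functions had medians from -0.24 to -0.09, beside -0.04 of all genes, and all of them moved with the setting. The maternal mRNA storage and decay list, 39 genes, had 0 higher in high and 6 in low fertility at the unadjusted p, 5 genes above 0 and a median of -0.22, which was -0.05 with the samples numbered 1 and 5 and -0.34 with array weights. CNOT6L, a deadenylase that removes maternal mRNA at meiosis, had 4.61 FPKM (3.31 to 7.35 FPKM) in high and 7.19 FPKM (3.22 to 18.0 FPKM) in low fertility, a difference of -0.60 (standard error 0.198). BTG4, the adaptor that brings this deadenylase to mRNA and the most abundant member, had 0.21, or 0.36 without LLO replicates 2 and 5. The 16 maternal effect genes had 0 and 3, with a median of -0.24. It was -0.07 with array weights, when that of all genes was -0.16, -0.08 without small follicles, -0.13 without LSO replicate 1 and -0.14 without LLO replicate 4. NPM2 had 0.09 there and the importin KPNA7 -0.33, while SMARCA4, the ATPase of a chromatin remodeller, had -0.37. The 15 oocyte transcription factors had 0 and 1 and a median of -0.14, which was 0.01 without small follicles and -0.05 without LSO replicate 1. TAF4B, a germ cell form of a TFIID subunit, had 1.46 FPKM (0.967 to 2.17 FPKM) against 2.37 FPKM (1.19 to 3.87 FPKM), a difference of -0.37.

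In the 10 genes of the zona pellucida and gamete fusion, 0 and 1 were past the unadjusted p and the median was -0.23. It was -0.02 with the samples numbered 1 and 5, -0.04 without small follicles, -0.14 without LMO replicate 2 and -0.36 without LLO replicates 2 and 5. ZP3 had 0.08 and ZP4 -0.19, and without that pair both had -0.38. The integrin subunit ITGB1 had -0.65 with 2.49 FPKM (1.19 to 8.73 FPKM) in high and 5.53 FPKM (1.46 to 15.6 FPKM) in low fertility. The 17 oocyte growth factors and their receptors had 0 and 2 and a median of -0.12, which was -0.05 with numbers 1 and 5 and -0.26 with array weights. The members past the unadjusted p were activin and BMP type I receptors, ACVR1B with -0.56 and ACVR1 with -0.36. Meiotic arrest and resumption genes, 48 in all, had 1 and 2 and a median of -0.09 that turned to 0.01 with median-of-ratios factors and to 0.03 with numbers 1 and 5. It was -0.28 with array weights and -0.03 without HMO replicate 4. CKS2, a partner of the cell cycle kinases and among the most abundant genes with a median of 4585 FPKM in high and 4580 FPKM in low fertility, had 0.06. FBXO43, the inhibitor that holds the egg in metaphase, had -0.46 and the meiotic cohesin SMC1B -0.38.

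DNA and histone methylation was the list with the smallest share of genes above 0, 2 of 27 or 7.41%. By the unadjusted p 0 were higher in high and 8 were higher in low fertility, and the median of -0.26 was similar in the stages, with -0.32 in large, -0.31 in medium and -0.27 in small follicles. The sign held under all 19 other settings. DNMT1, the maintenance DNA methyltransferase, had 52.6 FPKM (42.5 to 95.1 FPKM) in high and 70.3 FPKM (38.8 to 432 FPKM) in low fertility, a difference of -0.56 (standard error 0.249, limma's adjusted p 0.476). Its highest values were those of LLO replicates 2 and 5, without which the difference was -0.27, and the lowest values of both groups were alike. UHRF1, which brings DNMT1 to newly made DNA, had -0.53. The histone demethylases KDM1B and KDM4A had -0.40 and -0.38, KDM1B with 0.783 FPKM (0.468 to 1.25 FPKM) against 1.27 FPKM (0.529 to 3.30 FPKM). The share above 0 stands beside 42.8% over all genes, and nothing particular to methylation is read from it.

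**Figure D3:**
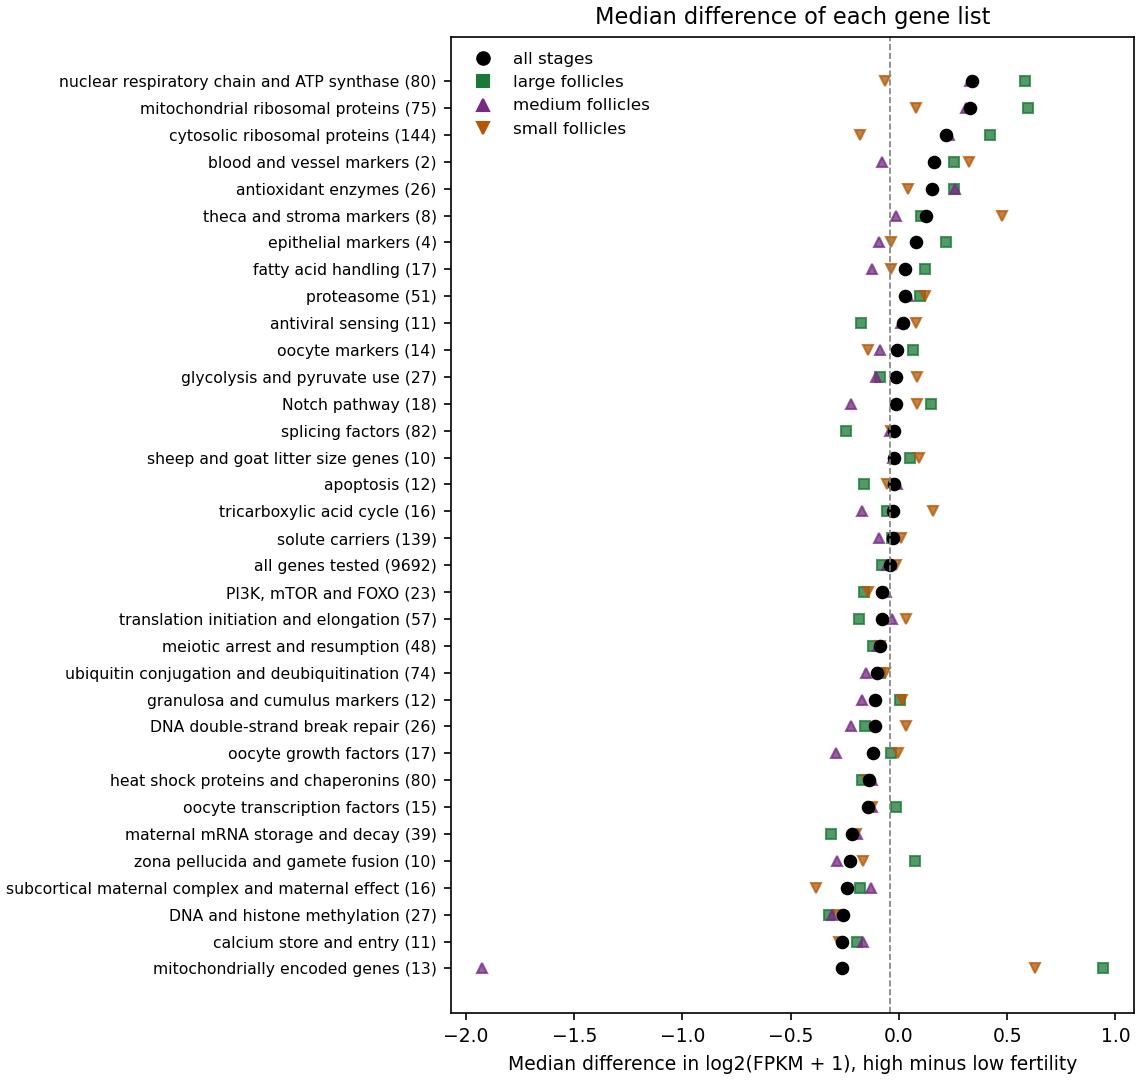
Median difference in log2(FPKM + 1), high minus low fertility, of each gene list, with the number of genes tested in parentheses; black circles are the difference shared by all stages, green squares large, purple upward triangles medium and orange downward triangles small follicles, and the dashed line is the median of all genes, -0.04. Shared medians of the respiratory chain and ribosomal lists lay to the right. In small follicles the medians were -0.07 for the respiratory chain, 0.08 for mitochondrial and -0.18 for cytosolic ribosomal proteins. Mitochondrially encoded genes had medians of opposite sign in the stages.

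Calcium store and entry, 11 genes, had 0 and 3 past the unadjusted p and a median of -0.26. It was -0.01 without a filter, the same as that of all genes there, -0.04 with numbers 1 and 5, -0.10 with array weights, -0.16 without LSO replicate 1 and -0.17 without LMO replicate 2. The plasma membrane calcium pump ATP2B1 had 5.66 FPKM (4.40 to 9.74 FPKM) in high and 8.37 FPKM (4.88 to 23.7 FPKM) in low fertility, a difference of -0.49. ITPR1, the channel that releases stored calcium at fertilisation, had -0.33, and calmodulin gene CALM2, the most abundant, 0.19. DNA double-strand break repair, 26 genes, had 0 and 1 and a median of -0.11, which was 0.02 with numbers 1 and 5 and -0.41 with array weights. The helicase FANCM had -0.37. The 82 splicing factors had 5 and 7 and a median of -0.02, which ran from -0.16 with numbers 2, 3 and 4 to 0.08 with numbers 1 and 5. SF3A1 of the U2 particle had 0.447 FPKM (0.176 to 0.771 FPKM) against 0.786 FPKM (0.427 to 6.02 FPKM), a difference of -0.54.

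Lists of metabolism had medians from -0.03 to 0.15, and each changed sign in at least 1 setting. Glycolysis and pyruvate use, 27 genes, had a median of -0.01 and the tricarboxylic acid cycle, 16 genes, -0.03, both with 0 genes past the unadjusted p in limma. These medians were -0.32 and -0.26 with array weights and 0.12 and 0.09 with numbers 1 and 5. Fatty acid handling, 17 genes, had 1 and 1 and a median of 0.03, which was -0.15 with array weights and 0.28 with numbers 1 and 5. The acyl-CoA synthetase ACSL3 had -0.50 and the acetyl-CoA carboxylase ACACA 0.28. Antioxidant enzymes, 26 genes, had 2 and 1, 69.2% above 0 and a median of 0.15, which was -0.13 with array weights, 0.03 without LLO replicates 2 and 5 and 0.33 with numbers 1 and 5. Mitochondrial glutaredoxin GLRX2 had 56.0 FPKM (10.2 to 97.8 FPKM) against 32.3 FPKM (2.69 to 86.4 FPKM), a difference of 0.98, or 0.59 without this pair. GCLC, which makes the precursor of glutathione, had -0.63. The 139 solute carriers had 4 and 6 and a median of -0.03, or -0.14 with array weights and 0.07 with numbers 1 and 5. SLC10A7 had 0.73 and the zinc transporter SLC39A6 -0.50.

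Signalling lists were small. The Notch pathway, 18 genes, had 0 and 1 and a median of -0.02, which ran from -0.17 without large to 0.09 without medium follicles. Its target gene HEY1 had -0.52. The PI3K, mTOR and FOXO list, 23 genes, had 0 and 1 and a median of -0.08, which was 0.06 with numbers 1 and 5 and -0.22 with array weights. The regulatory subunit PIK3R1 had -0.46. Apoptosis, 12 genes, had 0 and 1 and a median of -0.02, or -0.26 with array weights and 0.04 with median-of-ratios factors, and APAF1 of the apoptosome had -0.32. Antiviral sensing, 11 genes, had 1 and 0 and a median of 0.02, which was -0.10 with numbers 2, 3 and 4 and 0.14 without large follicles. The member past the unadjusted p was IFIT5, an interferon-induced protein that binds RNA, with 13.5 FPKM (0.548 to 69.6 FPKM) in high and 1.63 FPKM (0.245 to 41.8 FPKM) in low fertility, a difference of 1.27 (standard error 0.590, limma's adjusted p 0.482). The ranges overlapped, and the difference was 2.12 in large follicles and below 1 in the others.

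Marker lists of the cell types had medians from -0.11 to 0.16, which also moved with the setting. The 14 oocyte markers tested had 0 past the unadjusted p in limma and a median of -0.01, which ran from -0.17 without large follicles to 0.08 with median-of-ratios factors. The linker histone H1FOO had -0.43. Granulosa and cumulus markers, 12 tested, had 0 and 1 and a median of -0.11, which was -0.35 with array weights and -0.04 with median-of-ratios factors. Theca and stroma markers, 8 tested, had 1 and 0 and 0.13, which was 0.01 without a filter and 0.32 with numbers 1 and 5. Blood and vessel markers, 2 tested, had 1 and 0 and 0.16, or 0.04 with array weights and 0.51 with a pseudocount of 0.1. The 4 epithelial markers tested had 0 past the unadjusted p and a median of 0.08, which was -0.02 with array weights and 0.20 without medium follicles. MGP had 19.8 FPKM (7.95 to 49.1 FPKM) in high and 9.59 FPKM (2.08 to 42.5 FPKM) in low fertility, with 0.56 in large, 0.08 in medium and 2.05 in small follicles, where the groups did not overlap. KDR had 0.561 FPKM (0.231 to 1.46 FPKM) against 0.306 FPKM (0.0736 to 0.713 FPKM), a difference of 0.25. The part of such RNA in the differences above was not tested.

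Large and small follicles leaned the same way more often than either did with medium follicles. Across the 9692 genes, which are not independent replicates, Pearson's r between the log2 differences of large and medium follicles was -0.06, between large and small 0.23 and between medium and small -0.18. Spearman's rho was -0.06, 0.19 and 0.02 in the same order, so the sign for medium and small follicles depended on the measure, and 52.5% of genes had the same sign in both of these stages, against 57.1% for large and small and 49.1% for large and medium follicles. The same sign in all 3 stages was found in 2846 genes (29.4%), of which 1034 were higher in high and 1812 higher in low fertility. Among the genes with an unadjusted p under 0.05 in the shared effect it was found in 255 of 329 and in 607 of 639, which the choice of those genes favours.

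Genes chosen in a stage, by a log2 difference beyond 1 and over 2 standard errors, were followed in the others. Of 361 genes higher in HLO than LLO, 62.0% were also higher in high fertility in small follicles (48.3% of all genes) and 58.7% in medium follicles (43.8%). Of 86 higher in LLO, 81.4% had that direction in small follicles (51.7%) and 43.0% in medium follicles (56.2%). Of 68 higher in HSO than LSO, 83.8% had that direction in large follicles (42.4%), with a median of 0.61, and 45.6% in medium follicles (43.8%). Of 101 higher in LSO, 87.1% had it in large follicles (57.6%), with a median of -0.56, and 9.90% in medium follicles (56.2%), with a median of 1.19. Of 216 higher in HMO than LMO, 29.2% had that direction in large (42.4%) and 13.4% in small follicles (48.3%), with medians of -0.42 and -0.82. Of 42 higher in LMO, 19.0% had it in large follicles (57.6%), with a median of 0.63, and 50% in small follicles (51.7%). The stages share no samples. In limma's test of whether the fertility difference differed between stages, 765 genes had an unadjusted p under 0.05 (7.89%) and 0 passed adjustment, with a smallest adjusted p of 0.0813. With array weights 231 genes passed adjustment, with the replicate number as a block 70 and with quantile normalization 2. Leaving out HMO replicate 2 gave 59 such genes after adjustment, against 12 without LLO replicate 4, 2 without LSO replicate 5 and 1 without LLO replicate 3.

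Low fertility samples lay farther from each other than high fertility samples, a direction already known for these samples within stages. The mean Euclidean distance between samples of a group, over log2(FPKM + 1) of all genes tested, was 86.8 in HLO and 136 in LLO, 80.6 in HMO and 95.4 in LMO, and 87.0 in HSO and 99.3 in LSO. Averaged over stages it was 84.8 in high and 110 in low fertility. The difference of 25.3 had p = 0.0149 in a two-sided permutation test with 100000 resamples, in which fertility labels were exchanged within stages. In the plane of the first pair of principal components it was 16.0 with p = 0.127 in the permutation test. The gap was widest in large follicles, where pairs of HLO were 48.0 to 120 apart and pairs of LLO 109 to 166 apart. Without large follicles the difference was 13.5 with p = 0.287 in the permutation test, and without HSO replicate 1 the permutation p was 0.0542. Without LLO replicates 2 and 5, a choice made after the data were seen, the difference was 22.4 (permutation p 0.0340). With quantile normalization it was 25.4 (permutation p 0.0158). With the replicate number as a block the difference was 17.5 with p = 0.103 in the permutation test.

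**Figure D4:**
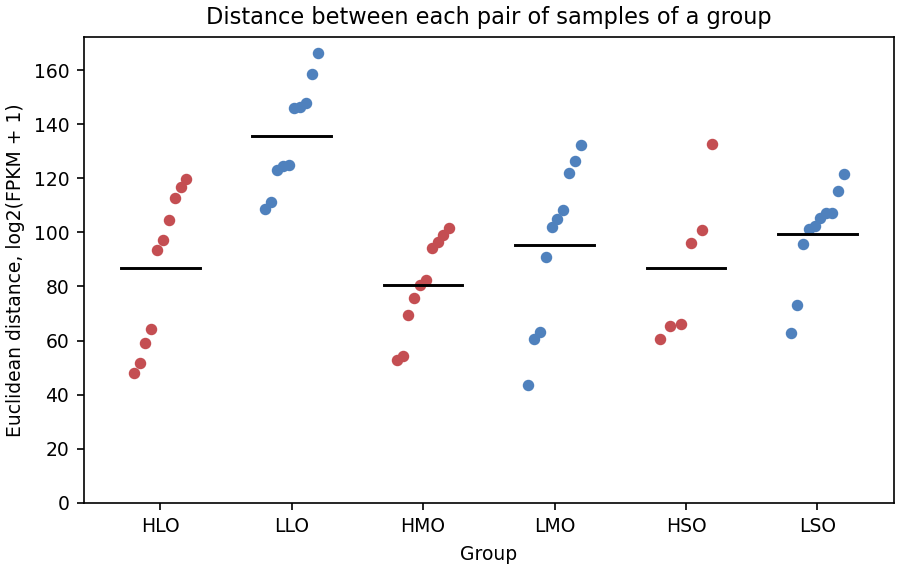
Euclidean distance in log2(FPKM + 1) between each pair of samples of a group (vertical axis), by group (horizontal axis); points are pairs, which share samples, black lines are means, and high fertility is red and low fertility blue. The mean lay higher in the low fertility group of each stage, by the widest gap in large follicles, at 86.8 in HLO and 136 in LLO.

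At the level of whole samples, 11 measures were compared by permutation tests with 100000 resamples within stages, and none passed 0.05 after adjustment over the 11. The FPKM total had the smallest p. It ranged from 376899 to 490048 (median 437621) in high and from 222697 to 448945 (median 419976) in low fertility, a difference of 36776 with a permutation p of 0.0293 and an adjusted p of 0.322. The lowest total was that of LMO replicate 2, without which the difference was 23593 (permutation p 0.0569), and most samples of both groups lay within a common range. The number of genes over 0.5 FPKM differed by -8.93 (permutation p 0.966). The share of mitochondrially encoded genes was 0.224 ± 0.369% (SD, n = 14) in high and 0.292 ± 0.332% (SD, n = 15) in low fertility (permutation p 0.732), and that of oocyte markers 0.858 ± 0.508% and 0.977 ± 0.432% (permutation p 0.575). Shares of granulosa, theca, blood and epithelial markers had permutation p of 0.326, 0.304, 0.228 and 0.474.

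Both fertility groups spanned the main axis of variation. The first principal component held 39.0% of the variance and the second 17.0%, and the fertility groups differed by 4.10 and 14.8 in these scores (permutation p 0.815 and 0.177). Scores of the first component ran from -55.6 to 71.7 in high and from -66.8 to 51.2 in low fertility. Those of the second ran from -20.3 to 28.1 in high and from -101 to 37.1 in low fertility, where LLO replicates 2 and 5 were far below the rest. Without LLO replicate 5 the difference in the second score was 9.26, and without both 0.809 (permutation p 0.883).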

How the data were processed

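The authors enriched the mRNA of the oocytes with oligo(dT) beads and sequenced it. They kept uniquely aligned reads, removed duplicates with picard and obtained FPKM per gene with Cufflinks and the Ensembl annotation. These deposited FPKM were the only values used, and how the enrichment bears on them was not tested. The aligner and the genome build are not given in the sources used here. Columns were matched to samples by name, and 1 value column, by its name an HSO sample numbered 2, matched no sample and was left out. Genes over 0.5 FPKM in at least 4 samples were tested on log2(FPKM + 1) with limma 3.58.1 (R 4.3.3), a mean-variance trend, follicle size as a covariate, two-sided tests and Benjamini-Hochberg adjustment; the interaction was an F-test. Stage differences came from a fit of group means. Single values used permutation tests (scipy 1.17.1). Python 3.11.15, numpy 2.4.6, pandas 2.3.3 and matplotlib 3.10.9 served for the rest.

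Named genes were those past the adjusted threshold, filled up to 10 per direction by log2 difference among genes with a symbol, an unadjusted p under 0.05 and the same sign in every stage, then 2 of highest mean FPKM and 2 of smallest p per list, and the tested litter size genes. Of these a part is given in the text. The members and the 33 lists were chosen with earlier results of these data known. Groups by level, counts of genes past both limits by list and the ranges of SDC2, MKRN2 and the genes given as other observations were chosen after the data were seen. Symbols shared by several entries are uncertain (3738 genes). Alternatives covered the pseudocount, filter, scaling, sample weights, block, covariates, sample numbers, stages and each sample left out; leaving out LLO replicates 2 and 5 together was added after the data were seen. The procedures were tested on simulated data.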

Additional observations from a re-analysis of the deposited data

Results flagged for a closer look

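In groups of 4 or 5 samples, 19 of 246 combinations of a measure and a group held a sample far from the others, by the ratio of its gap to the whole range of the group. The ratios of genes were taken on log2(FPKM + 1), and those of whole samples on the values as given. Chance alone sets apart about 1 in 20 groups.

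Among the genes with the largest differences, LOC102189495 had HLO replicate 4 at 0.246 FPKM against 8.28 to 12.6 FPKM in the other HLO samples (ratio 0.839). COQ5 had LMO replicate 2 at 9.79 FPKM against 114 to 141 FPKM (0.919) and LSO replicate 1 at 2.65 FPKM against 68.8 to 119 FPKM (0.845). LYRM4 had HMO replicate 3 at 1.44 FPKM against 17.5 to 19.4 FPKM (0.954), and HSO replicate 3 was listed at 0 against 9.31 to 14.6 FPKM (0.85). SMIM20 was listed at 0 in all but a single sample of LMO, replicate 1 with 3.28 FPKM, and of LSO, replicate 3 with 8.37 FPKM (ratio 1 in each), and HSO replicate 5 had 8.19 FPKM against 3.48 to 3.53 FPKM (0.984). In the same way PUM2 stood above 0 only in LLO replicate 2 with 5.53 FPKM and in HMO replicate 3 with 5.99 FPKM within their groups (ratio 1 in each). DEK had LSO replicate 1 at 29.6 FPKM against 10 to 13.3 FPKM (0.747).

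Of the litter size genes, BMP15 had LSO replicate 3 at 96.4 FPKM against 182 to 216 FPKM (ratio 0.791). INHBB had HLO replicate 4 at 0.764 FPKM against 0 to 0.122 FPKM (0.797), and ESR2 had LLO replicate 4 at 1.16 FPKM against 0.0151 to 0.234 FPKM (0.741). IGF1 had LMO replicate 4 at 0.823 FPKM against 0.508 to 0.581 FPKM (0.752), and INHBA had LMO replicate 5 at 5.21 FPKM against 0.0916 to 0.565 FPKM (0.793).

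Among measures of whole samples, the FPKM total was 222697 in LMO replicate 2 against 398198 to 436739 in the other LMO samples (ratio 0.82). The share of mitochondrially encoded genes was 0.389% in HLO replicate 1 against 0.0396 to 0.105% (0.812), and the share of theca and stroma markers 0.0145% in HLO replicate 5 against 0.00657 to 0.00858% (0.748). In the test of a fertility difference that differs between stages, limma gave 0 genes past the adjusted threshold and 765 at an unadjusted p under 0.05.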

How the results depend on the processing

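Over 19 other settings and 29 fits without a sample, PLEKHA3 was lower in high fertility each time, but limma's adjusted call was lost in 8 settings and without 14 samples. Of 144 named genes, 64 had an unadjusted p under 0.05 and 0 of these changed sign in any of these fits. Of the other 80, 55 did. The choice of the 64 by their p in these same samples favours this, so it is no separate support for them. The cause was not tested for any change below.

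The adjusted count higher in low fertility was 0 without a filter, with median-of-ratios factors, quantile normalization, samples numbered 1 and 5, samples numbered 2, 3 and 4, without large, without medium follicles and without LLO replicates 2 and 5. PLEKHA3 had an adjusted p of 0.0571 without a filter, 0.915 with numbers 1 and 5, 0.582 with 2, 3 and 4, 0.448 without large and 0.507 without medium follicles. Array weights gave 87 genes higher in high and 604 in low fertility after adjustment, 494 and 2784 at the unadjusted p, and 28 and 149 past both limits, with a median of all genes of -0.16 in place of -0.04. Without LLO replicates 2 and 5, chosen after the data were seen, 191 genes were higher in high fertility at the unadjusted p and 15 past both limits, and the difference in the ribosomal share was -0.810. Without large follicles 1 gene, LOC102189495, was higher in high fertility after adjustment, 203 at the unadjusted p and 20 past both limits.

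At the unadjusted p, counts higher in high fertility were 494 without a filter, 595 with median-of-ratios factors, 614 with the first principal component as a covariate, 218 with numbers 1 and 5 and 209 with 2, 3 and 4. Counts higher in low fertility were 413 with median-of-ratios factors, 1023 with the component, 67 with numbers 1 and 5 and 320 without small follicles. Past both limits, those higher in high fertility were 146 and 71 with pseudocounts of 0.1 and 0.5, 88 with median-of-ratios factors, 138 without medium and 95 without small follicles. Those higher in low fertility were 16 with a pseudocount of 0.1, 21 with numbers 2, 3 and 4 and 50 without medium follicles. The interaction had 2 adjusted calls with quantile normalization and 231 with array weights, which gave 1619 unadjusted. The difference in distance was 16.0 in the plane of the first components (permutation p 0.127) and 13.5 without large follicles (permutation p 0.287).

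With a sample left out, adjusted counts were 0 to 1 higher in high fertility (1 without HLO replicate 4 or LLO replicate 5) and 0 to 1 in low fertility (0 without the 14 samples). Unadjusted counts were lowest without LLO replicate 2 (206) and highest on leaving out LLO replicate 1 (504) for high fertility, and 471 to 889 for low fertility. Past both limits they were 14 to 101 for the same omissions, with 31 and 30 without HLO replicates 1 and 2, 26 without LLO replicate 5, 80 without HSO replicate 3 and 81 without LMO replicate 1, and 2 (without HSO replicate 1) to 5 in low fertility. Interaction counts were 0 to 59 adjusted (59 without HMO replicate 2, 12 without LLO replicate 4, 2 without LSO replicate 5 and 1 without LLO replicate 3) and 595 to 1133 unadjusted. The difference in distance was 19.7 (without LMO replicate 2) to 29.6 (without HSO replicate 3), with permutation p from 0.00486 to 0.0542 (without HSO replicate 1). Differences of sample measures that changed sign were genes over 0.5 FPKM (-88.3 to 81.9), the mitochondrial share (-0.137 to 0.00968), the ribosomal share (-0.397 to 0.499) and the first component (-2.49 to 11.0).

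Samples of the same number in both fertility groups share only a number: of 14 pairs within stages, deviations from group means correlated over 0.1 in 10 (-0.48 to 0.71, median 0.46), and 15 of 28 samples correlated best with their own number, a hint from the data and not from the design. Scores of the first component were -66.8 to -27.4 for number 2, -54.7 to -31.6 for number 3 and 30.5 to 71.7 for number 5, whereas numbers 1 and 4 spread from -5.43 to 51.2 and from -55.6 to 49.7. With the replicate number as a block, 494 genes were higher in high and 967 in low fertility at the unadjusted p, the interaction had 70 adjusted and 1405 unadjusted calls, the difference in distance was 17.5 (permutation p 0.103), and PLEKHA3 had an adjusted p of 0.0160.

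Depth could not be read from FPKM, the only values used, so how far it limits low genes was not tested. HSO rested on 4 samples, and the goats behind the samples are not recorded.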

Other observations

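Outside the named genes, a few others with small p or large differences are given here, chosen after their values were seen. None passed the adjusted test. PPFIBP1, a liprin that binds a phosphatase at cell contacts, and ABCC1, a transporter that exports glutathione conjugates, shared the adjusted p of 0.367 with LOC102189495, with log2 differences of -0.55 and -0.44.

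AHSP, the chaperone of free alpha-globin, had 9.27 FPKM (3.61 to 25.6 FPKM) in high and 5.52 FPKM (0 to 24 FPKM) in low fertility, a log2 difference of 1.16 (standard error 0.413, limma's adjusted p 0.423). LOC102168959, annotated as an alpha-globin-like gene, had 9.74 FPKM (0 to 18.4 FPKM) against 3.51 FPKM (0 to 12.1 FPKM), a difference of 1.23 (standard error 0.459). Both were largest in large follicles, at 2.28 and 2.16, and the groups overlapped. The blood and vessel markers summed to 1.34 ± 0.536 FPKM (SD, n = 14) in high and 0.978 ± 0.774 FPKM (SD, n = 15) in low fertility, and the erythroid gene ALAS2 reached at most 0.464 FPKM. The part of red blood cells in these values was not tested.

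ME3, a mitochondrial malic enzyme, had 86.1 FPKM (37.8 to 155 FPKM) in high and 51.6 FPKM (1.18 to 144 FPKM) in low fertility. Its difference of 1.4 was 2.55 in large, -0.08 in medium and 1.78 in small follicles. GNG4, a G protein subunit, had 13.4 FPKM (2.52 to 22.0 FPKM) against 4.92 FPKM (0 to 18.1 FPKM), with 1.36, 1.18 and 0.73 in the same order of stages.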
